A study of Mus musculus with 12 samples.

Results

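Megakaryocytes were examined in livers of mouse embryos (E16.5, in days after conception) and of newborn pups (P3, in days after birth). The members were droplet barcodes with a UMI (a counted RNA molecule) for at least 3 of 6 platelet-lineage genes, namely Pf4, Itga2b, Gp9, Gp1bb, Ppbp and Gp6. This gate took 1029 of 184493 barcodes that had at least 1000 UMIs and at most 15% mitochondrial UMIs. The gate genes chose the members, so their levels are given as a description with no test.

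Megakaryocytes are large blood cells that copy their DNA repeatedly without dividing and then shed platelets from long cytoplasmic extensions called proplatelets. The fetal liver is a main site of blood formation before birth, and megakaryocytes and red cell precursors arise there from shared progenitors. The hormone thrombopoietin drives their growth, and Gata1, Fli1, Runx1 and Nfe2 are among their transcription factors. They load alpha granules with clotting and growth factors, fill dense granules with small signalling molecules such as serotonin, and place adhesion receptors on the surface that the platelet inherits.

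Whole livers were dissociated for droplet-based single-cell RNA sequencing from crosses of mice heterozygous for the Nodder allele of Jag1 (Jag1Ndr), a missense change in a Notch ligand. The 12 deposited matrices held 9 libraries. At E16.5 these were Jag1+/+ replicate 1, a library deposited identically as Jag1+/+ replicate 2 and Jag1Ndr/+ replicate 2 (the shared library, counted once), Jag1Ndr/+ replicate 1, and Jag1Ndr/Ndr replicates 1 and 2. At P3, library A (labelled Jag1+/+ replicate 1) and library B (labelled Jag1+/+ replicate 2) were also present inside matrices with other genotype labels, and were compared between stages only. Library C was the part of Jag1Ndr/Ndr replicate 1 that was not library A, and library D was Jag1Ndr/+ replicate 1. The design text gives 2 individuals per genotype and stage, homozygous pups at P3 were picked by jaundice, and TrypLE was added to the digestion at E16.5 only. Stage was therefore bound to digestion, to the counting software and to the gene list, and these cannot be told apart. Unrelated matrices shared 0.547% to 1.72% of their barcodes, whereas 19927 barcodes of library A (68.4%) recurred in the matrix labelled Jag1Ndr/Ndr replicate 1. Matrices totalled 30087760 to 288658950 UMIs, and the UMIs of the gated barcodes summed to between 937596 and 4855718 per library.

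Promoter sequence is shown for 3 gate genes and for 3 further platelet genes, because GATA and ETS factors are known regulators of such genes. These 6 were picked after the search among those that held a match, so that the letters can be seen. Of the other gate genes, Gp1bb, Ppbp and Gp6 held neither. Each window is the 120 bases before the annotated start, 5′ to 3′ on the strand of the gene, from RefSeq on GRCm38.p6, and capitals mark GATAA or its reverse complement TTATC, and AGGAAG or its reverse complement CTTCCT.
Pf4, chr5:90772315-90772434, plus strand: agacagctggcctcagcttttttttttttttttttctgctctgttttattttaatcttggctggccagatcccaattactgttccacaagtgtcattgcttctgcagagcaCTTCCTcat
Itga2b, chr11:102469884-102470003, minus strand: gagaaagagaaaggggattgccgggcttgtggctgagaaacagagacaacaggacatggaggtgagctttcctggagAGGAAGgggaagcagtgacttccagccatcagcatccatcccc
Gp9, chr6:87777950-87778069, plus strand: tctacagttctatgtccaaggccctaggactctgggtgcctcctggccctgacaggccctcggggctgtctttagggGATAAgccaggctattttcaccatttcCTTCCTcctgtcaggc
Gp1ba, chr11:70639002-70639121, plus strand: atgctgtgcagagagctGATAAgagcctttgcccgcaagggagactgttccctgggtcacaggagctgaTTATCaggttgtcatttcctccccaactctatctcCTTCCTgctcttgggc
Gp5, chr16:30310782-30310901, minus strand: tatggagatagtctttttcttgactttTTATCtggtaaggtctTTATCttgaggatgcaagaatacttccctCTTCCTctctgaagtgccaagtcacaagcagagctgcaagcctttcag
Tubb1, chr2:174450475-174450594, plus strand: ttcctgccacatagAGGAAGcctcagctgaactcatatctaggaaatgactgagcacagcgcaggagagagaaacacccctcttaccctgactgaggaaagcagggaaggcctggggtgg
The GATA letters stood in 1 of the 6 gate gene windows and the ETS letters in 3 of 6. Among the 13 of 18 further platelet genes described below that had an entry, 6 held the GATA letters and 5 the ETS letters. Over all 32851 RefSeq promoters of the same length, the shares were 10.5% and 16.3%. The search covered both strands, and a match is a run of letters, not a bound site.

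Pf4 (platelet factor 4, an alpha granule chemokine) stood at 11379.7, 16979.6, 14149, 8258 and 12677 CPM (counts per 1000000 UMIs of the summed barcodes) in the gated barcodes of the E16.5 libraries, in the order given above. In P3 libraries A to D it stood at 24661, 19206, 31434 and 33362 CPM. All P3 libraries were above all E16.5 libraries, and the mean over the other barcodes of the 9 libraries was 47.0 CPM. Itga2b, the alpha chain of the fibrinogen receptor, ran from 425 to 636 CPM at E16.5 and from 1292 to 2176 CPM at P3. Gp9 and Gp1bb, parts of the receptor for von Willebrand factor, ran from 195 to 294 and from 34.7 to 65.9 CPM at E16.5. At P3 they ran from 927 to 1764 and from 102 to 377 CPM. Ppbp, a chemokine precursor, overlapped between stages (734 to 2492 CPM at E16.5 and 1327 to 6601 CPM at P3), while Gp6, the collagen receptor, did not (40.2 to 108 and 140 to 401 CPM).

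The label held for only part of the gated barcodes. Of the 1029, 542 had exactly 3 gate genes, and their median share of globin UMIs, which belong to red cell precursors, was 22.4%. It was 14.7% with 4 gate genes (246 barcodes), 6.07% with 5 (104) and 0.587% with all 6 (137). Over the same steps, the median summed level of the gate genes went from 914 to 3829, 15903 and 46130 CPM, and the median depth was 53996 UMIs with all 6. Just outside the threshold, 3850 barcodes had 2 gate genes, with a median of 28.3% globin. A UMI of Pf4 was present in 17.4% of the barcodes outside the gate (median 6260 UMIs) and in 98.3% of those inside it (median 9907 UMIs).

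A list of 18 other platelet genes, which includes Gp1ba, Gp5, Itgb3, Vwf, Treml1, Tubb1 and Alox12, was used to find the members in which more of the program was detected. The core was set, after the data had been seen, as the gated barcodes with at least 5 of these genes. It held 584 barcodes, which is 100% of those with all 6 gate genes, 95.2% with 5, 73.2% with 4 and 31.0% with 3. The other 445 gated barcodes had a median of 32.4% globin and of 2 of the 18 genes. By library, their globin median ran from 25.9% to 58.5% at E16.5. It was 0.609%, 0.476%, 11.2% and 37.1% in P3 libraries A to D. In the core, the globin median was 15.9% at E16.5 and 0.381% at P3. Outside the gate, 258 barcodes reached 5 of the 18, of which 137 had 2 gate genes.

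**Figure D1:**
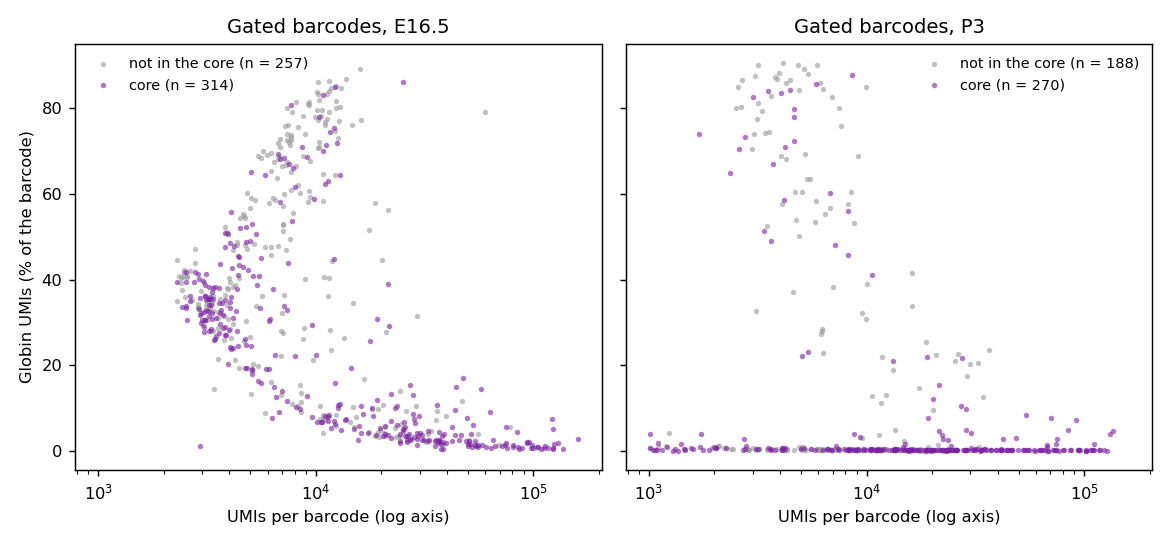
Each point is a gated barcode, by its UMIs (log axis) and its share of globin UMIs (%), at E16.5 (left, 314 in the core, 257 not) and P3 (right, 270 and 188); purple marks the core. Barcodes with the most UMIs lie near 0% globin at both stages, and many of the small core barcodes at E16.5 have a high globin share.

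RNA of other cell types was measured beside these genes. At E16.5, 98.7% to 100% of core barcodes per library held a UMI of at least 3 of 6 erythroid markers, against 99.8% to 100% outside the gate. The summed erythroid level was 8809 to 24971 CPM in the core and 56323 to 85207 CPM outside the gate. At P3 it was 1887 to 2577 CPM in the core. Of the neutrophil, hepatocyte and endothelial lists, the summed levels in the E16.5 core were 1826 to 6249, 531 to 10373 and 40.9 to 411 CPM. In the P3 core they were 3166 to 12091, 71.2 to 194 and 80.6 to 142 CPM, so the hepatocyte and erythroid lists did not overlap between stages. Outside the gate the endothelial list was at 39.1 to 113 CPM at E16.5. Fits on all gated barcodes also hold those that were not in the core. In these, the neutrophil list was at 1627 to 17892 CPM at E16.5 and at 39807 to 63188 CPM at P3, without overlap. Their erythroid list was at 39369 to 69517 CPM at E16.5 and at 11514 to 57766 CPM at P3. Which part of any result below comes from such RNA was not tested, except where a value without those barcodes is given.

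Core barcodes differed widely in depth. Core barcodes with under 5000 UMIs numbered 156, with a median of 978 genes and 32.2% globin. Those with 20000 UMIs or more numbered 242, 14 to 53 per library, with a median of 5782 genes and 1.16% globin. Their median summed gate gene level was 18931 CPM. Some at both stages still reached the gate and the core on few UMIs of these genes. All 6 gate genes were found in 14.3% to 37.5% of them per library at E16.5 and in 48.1% to 68.2% at P3. Their hepatocyte list was at 366 to 13788 CPM at E16.5 and at 76.0 to 146 CPM at P3. Large core values are therefore not free of RNA of other cell types, and its part in them was not tested. In these large barcodes, Pf4 ran from 17408 to 21489 CPM at E16.5 and from 27633 to 47171 CPM at P3.

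Within each of the 9 libraries, the large core barcodes could be set beside those under 5000 UMIs. The summed transcription factor list was higher in the large ones in 9 of 9 libraries (median over libraries 1177 and 3133 CPM), and globin was lower in 9 of 9. The signalling and dense granule list was higher in the large ones in 8 of 9 libraries (6603 and 7695 CPM), and the surface receptor list in 6 of 9 (5157 and 5224 CPM). The alpha granule and cytoskeleton lists were each higher in 7 of 9. For the cell cycle list the medians were 2487 and 2694 CPM, higher in 6 of 9 libraries. Its members differed, since Cdk1, a mitotic kinase, went from 66.3 to 127 CPM (higher in 9 of 9) and Mki67, a proliferation marker, from 522 to 367 CPM (higher in 4 of 9). Some members of these lists are among the genes that set the gate or the core, and small barcodes with few UMIs had to reach the same number of them. These classes were cut by depth after the data had been seen, and no test was made.

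**Figure D2:**
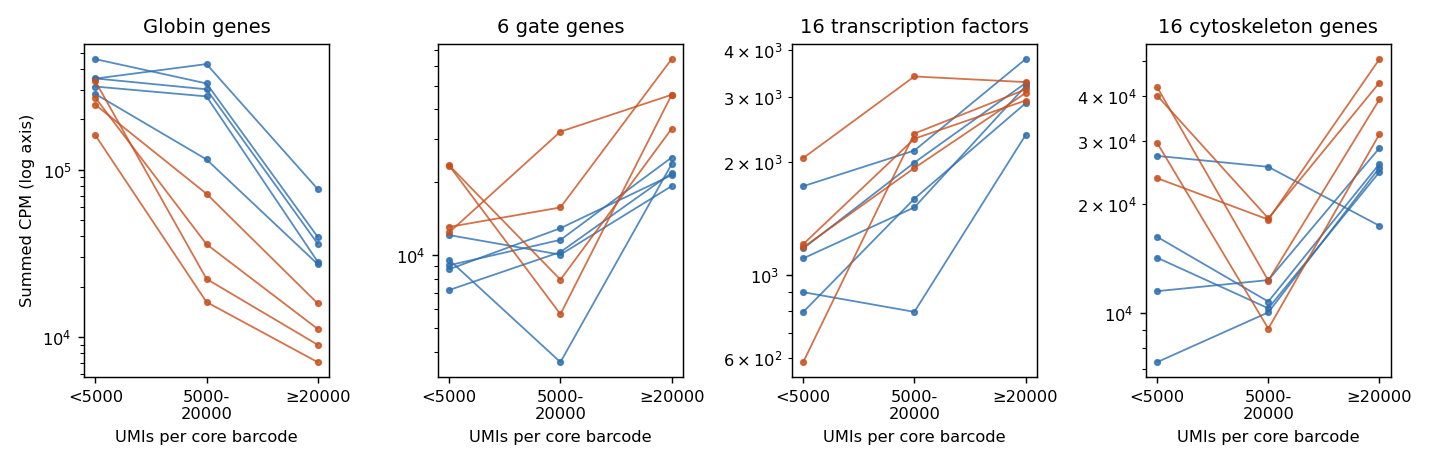
Summed CPM (log axis) of globin genes, the 6 gate genes, 16 transcription factors and 16 cytoskeleton genes in core barcodes of 3 depth classes, 1 line per library (E16.5 blue, P3 orange). From under 5000 to 20000 UMIs or more, globin falls and the gate genes and transcription factors rise in all 9 libraries.

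The gated share of passing barcodes was 0.581%, 0.558%, 0.324%, 0.599% and 0.537% in the E16.5 libraries and 0.874%, 0.741%, 0.572% and 0.317% in P3 libraries A to D. Jag1Ndr/+ replicate 1 at E16.5 (exact 95% interval 0.262% to 0.396%) and library D at P3 (0.238% to 0.413%) were the lowest of their stages. The mean was 0.520% ± 0.112 (SD, n = 5) at E16.5 and 0.626% ± 0.240 (SD, n = 4) at P3, a difference within the spread (exact two-sided permutation test, p = 0.405). When every barcode was thinned to 1000 UMIs before gating, the means became 0.104% and 0.179% (exact permutation p = 0.0317). For the core, the means were 0.288% and 0.371% (exact permutation p = 0.238). At E16.5 the Jag1Ndr/Ndr libraries averaged 0.568% ± 0.0439 (n = 2) and the other libraries 0.488% ± 0.142 (n = 3). The exact permutation p was 0.8, and 0.1 is the smallest that 2 against 3 allows. In percentage points the difference was 0.0807, but -0.00118 without Jag1Ndr/+ replicate 1 and -0.00275 in the core. Library C, labelled Jag1Ndr/Ndr, and library D, labelled Jag1Ndr/+, have no replicate and were not tested.

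**Figure D3:**
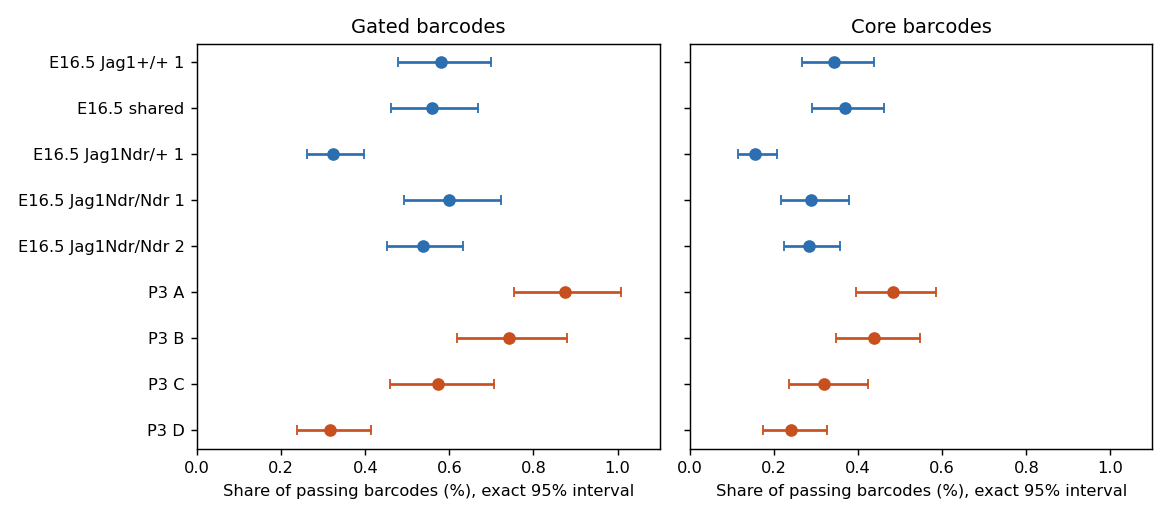
Share of passing barcodes that were gated (left) and in the core (right) in each library, with exact 95% binomial intervals, which cover counting error only (E16.5 blue, P3 orange). The stages overlap, and Jag1Ndr/+ replicate 1 at E16.5 is the lowest of its stage in both panels.

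Barcodes with more UMIs are more likely to reach the 3 genes of the gate, so part of the depth of members is set by the rule, and members and other barcodes were not tested against each other. The median per library was 7401 to 10744 UMIs in gated barcodes and 5319 to 9253 in the others at E16.5. At P3 it was 8286 to 14519 in gated barcodes and 2957 to 6215 in the others. On the log2 scale, the gated medians averaged 13.11 ± 0.24 at E16.5 (n = 5) and 13.50 ± 0.36 at P3 (n = 4), with an exact permutation p of 0.0952. Without library B the difference was 0.556 (exact permutation p = 0.0357). The other barcodes went the opposite way, from 12.79 to 12.13 (exact permutation p = 0.0317).

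Gated barcodes were then compared with 2327 progenitor barcodes (Kit and Cd34 both detected) and with 123324 erythroblast barcodes, over summed UMIs of the 9 libraries. A gene was called at an adjusted p under 0.05 (edgeR quasi-likelihood test, Benjamini-Hochberg) and at least 2-fold. Against progenitors, 1905 of 11202 genes (17.0%) were called, 1032 higher (9.21%) and 873 lower (7.79%) in members. Against erythroblasts, 2543 of 11198 (22.7%) were called, 1279 higher (11.4%) and 1264 lower (11.3%). In all, 700 of 11196 genes (6.25%) were higher in both, after the gate genes were left out.

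By the smaller of the 2 changes, the leading genes were F2rl2, Treml1, Mpig6b, Ly6g6f, Gnaz, Gp5, Mrvi1, Kcnj5, Alox12, Itgb3, Gp1ba, Slc6a4, Rbpms2, Rab27b and Pde3a. F2rl2, a thrombin receptor subunit, was higher by 8.30 ± 0.42 (log2, SE) against progenitors and by 8.26 ± 0.34 against erythroblasts. Pde3a, the fifteenth, was higher by 7.59 ± 0.50 and 7.13 ± 0.40. Each of the 15 kept its direction and its call under every alternative run. They were picked as the largest changes of these same fits, so this is no independent support. Gp5, Treml1, Itgb3 and Alox12, among others of the 15, also helped to choose the core, which was among the alternatives. Treml1, a platelet granule receptor at chr17:48359916-48367176 (GRCm38, plus strand), stood at 397 ± 98.8 CPM (SD, n = 5) at E16.5 and 1209 ± 317 CPM (n = 4) at P3 in members, and at 1.27 and 1.23 CPM in all other barcodes.

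Many of these genes make the platelet surface. Gp1ba and Gp5 join Gp9 and Gp1bb in the receptor for von Willebrand factor, and Itgb3 pairs with Itga2b. Mpig6b is an inhibitory receptor, Gnaz a G protein of platelet signalling, Alox12 a lipoxygenase, Slc6a4 the serotonin transporter that fills dense granules, and Pde3a a cyclic nucleotide phosphodiesterase. Ranked by the ratio of members to all other barcodes at 50 CPM or more, the 10 genes most concentrated in members were Mpig6b, Ly6g6f, Treml1, Trpc6, Gp5, Alox12, F2rl2, Kcnj5, Gnaz and Slc6a4. Their log2 ratios over the 9 libraries ran from 8.55 to 9.39.

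The fixed lists gave the following counts. Of 18 surface receptors, 17 were higher than in progenitors and 18 than in erythroblasts (median log2 change 4.43 and 5.62). All 16 cytoskeleton genes were higher in both comparisons (3.47 and 3.01). For transcription factors, 11 of 16 were higher than in progenitors and 8 of 16 than in erythroblasts, and Erg was lower than in progenitors. Of 24 cell cycle genes, 1 was higher and 1 lower than in progenitors, whereas 12 were lower than in erythroblasts. The medians over all genes tested were -0.06 and -0.07. Of all genes, 9.21% were higher and 7.79% lower than in progenitors, and 11.4% and 11.3% than in erythroblasts.

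Between stages, most genes of the surface receptor, signalling and cytoskeleton lists were called higher at P3, and 8 of the 16 alpha granule genes. Fits on gated barcodes called 3232 of 9204 genes (35.1%), 1613 higher (17.5%) and 1619 lower (17.6%) at P3 (edgeR quasi-likelihood test, adjusted p under 0.05). In large core barcodes, 2811 of 7940 (35.4%) were called, 1516 higher (19.1%) and 1295 lower (16.3%). A second model asked whether the stage change differed between members and all other barcodes, and called 1228 of 13776 genes (8.91%), 1007 of them higher (7.31%) and 221 lower (1.6%) in members. The mix of the other barcodes shifted too, with summed erythroid markers at 56323 to 85207 CPM at E16.5 and 12731 to 39058 CPM at P3. A call of this model can therefore come from a change in either set. In the whole core, the counts were 2886 for the stage fit and 1143 for the second model. Without core barcodes that held 3 or more endothelial markers, they were 2111 and 426, from fewer barcodes. In every library most of the barcodes left out were large (2 of 3 in E16.5 Jag1+/+ replicate 1, 15 of 15 in P3 library A). The parts of depth and of endothelial RNA in this drop were not tested. Called in both models with the same direction were 488 genes higher at P3 (5.3%) and 62 lower (0.674%). The median log2 change over all genes was -0.02.

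Surface receptors were higher at P3 for 16 of 18 genes and lower for 0 (median log2 change 1.28). In the large core barcodes it was again 16 higher and 0 lower (median 1.60), and in the whole core 16 higher and 1 (F2rl2) lower, where 17.4% of all genes were higher and 16.8% lower. The core was chosen by detection of genes that this list also holds, among them Gp5, Clec1b, Treml1 and F2rl2, and the alpha granule, signalling and cytoskeleton lists hold others of these genes, so the core counts are no independent repeat. Clec1b, the podoplanin receptor CLEC-2 at chr6:129397297-129409335 (plus strand), stood at 297, 372, 222, 262 and 324 CPM at E16.5 and at 959, 1129, 1511 and 1780 CPM at P3. The stages did not overlap, and the change was 2.09 ± 0.19 (log2, SE; adjusted p = 1.71e-05). It also exceeded that of the other barcodes, by 2.05 ± 0.20 (adjusted p = 9.5e-06). Cd226, an adhesion receptor, went from 29.4 ± 14.2 CPM (SD, n = 5) to 294 ± 98.1 CPM (n = 4). Its rise beyond the other barcodes (1.31 ± 0.37, adjusted p = 0.0388) was no longer called without library A, C or D, Jag1Ndr/+ replicate 1 or either Jag1Ndr/Ndr library. Mpig6b went from 54.9 ± 21.5 to 245 ± 96.6 CPM, and P2ry12 (the ADP receptor), Gp5 and Treml1 rose by 1.85, 1.79 and 1.54 on the log2 scale. Gp1ba did not pass, at 135 ± 59.0 and 132 ± 35.4 CPM, although Gp5 of the same complex went from 203 ± 57.6 to 739 ± 215 CPM. F2rl2 did not pass either (235 ± 129 and 159 ± 20.5 CPM). In the second model, Gp1ba and F2rl2 were both called higher relative to the other barcodes, in the gated, core and large core sets.

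Alpha granule and secreted proteins were higher for 8 of 16 genes and lower for 0 (median 0.58), where 17.5% of all genes were higher. Tgfb1, a growth factor stored in platelets, stood at 268, 356, 232, 192 and 260 CPM at E16.5 and at 884, 976, 1302 and 930 CPM at P3. Its rise of 1.90 ± 0.17 (adjusted p = 1.62e-05) did not differ detectably from that in other barcodes (interaction 0.50 ± 0.19, adjusted p = 0.138). F5 (clotting factor V) went from 105 ± 29.2 to 346 ± 99.7 CPM and Vwf (von Willebrand factor) from 224 ± 68.3 to 578 ± 141 CPM. Clu, Srgn and Serpine2 were also called higher. Thbs1 (thrombospondin 1), named after its values were seen, was not called and stood at 1088 ± 506 and 1042 ± 381 CPM. In the other barcodes Thbs1 averaged 78.8 CPM at E16.5 and 20.4 CPM at P3, and its interaction was 2.54 ± 0.32 (adjusted p = 6.47e-05).

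Signalling and dense granule genes were higher for 17 of 20 and lower for 0 (median 1.27), and 18 of 20 in the large core barcodes. Alox12 stood at 172, 266, 135, 130 and 212 CPM at E16.5 and at 793, 625, 1417 and 1122 CPM at P3. The rise was 2.37 ± 0.25 (adjusted p = 4.94e-05), with no overlap between stages. Nrgn, a calmodulin-binding protein, went from 323 ± 53.5 to 1352 ± 272 CPM. Rasgrp2, which activates the GTPase that switches on integrins, went from 396 ± 132 to 1355 ± 350 CPM, and Tln1 (talin), which binds integrin tails, from 475 ± 123 to 1828 ± 525 CPM. The calcium channels Itpr2 and Orai1 rose by 1.88 and 1.59 on the log2 scale, while their interactions over all gated barcodes did not pass (adjusted p = 0.1 and 0.0652). The interaction of Itpr2 was called higher in the core, and those of both genes in the large core barcodes.

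Cytoskeleton and proplatelet genes were higher for 14 of 16 and lower for 0 (median 1.50), and 16 of 16 in the large core barcodes. Myl9, a myosin light chain at chr2:156775420-156781658 (plus strand), stood at 139, 189, 152, 194 and 182 CPM at E16.5 and at 1415, 1146, 3286 and 1783 CPM at P3. That is a rise of 3.39 ± 0.31 (adjusted p = 1.87e-05), and in large core barcodes of 3.95 ± 0.33 (adjusted p = 4.83e-06). Tubb1, the beta tubulin of the platelet rim at chr2:174450695-174457882 (plus strand), stood at 6.37, 11.4, 11.4, 9.14 and 11.1 CPM at E16.5. At P3 it was at 32.1, 46.8, 79.7 and 180 CPM, all above E16.5 but with a wide spread (rise 2.91 ± 0.44, adjusted p = 0.000437). Both rises exceeded those of other barcodes, by 3.42 ± 0.28 and 3.83 ± 0.42 (adjusted p = 2.35e-06 and 2.33e-05). Tuba4a, Zyx, Parvb and Ilk, which code for a tubulin and for adaptors that anchor actin, rose by 1.96, 1.84, 1.82 and 1.74.

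**Figure D4:**
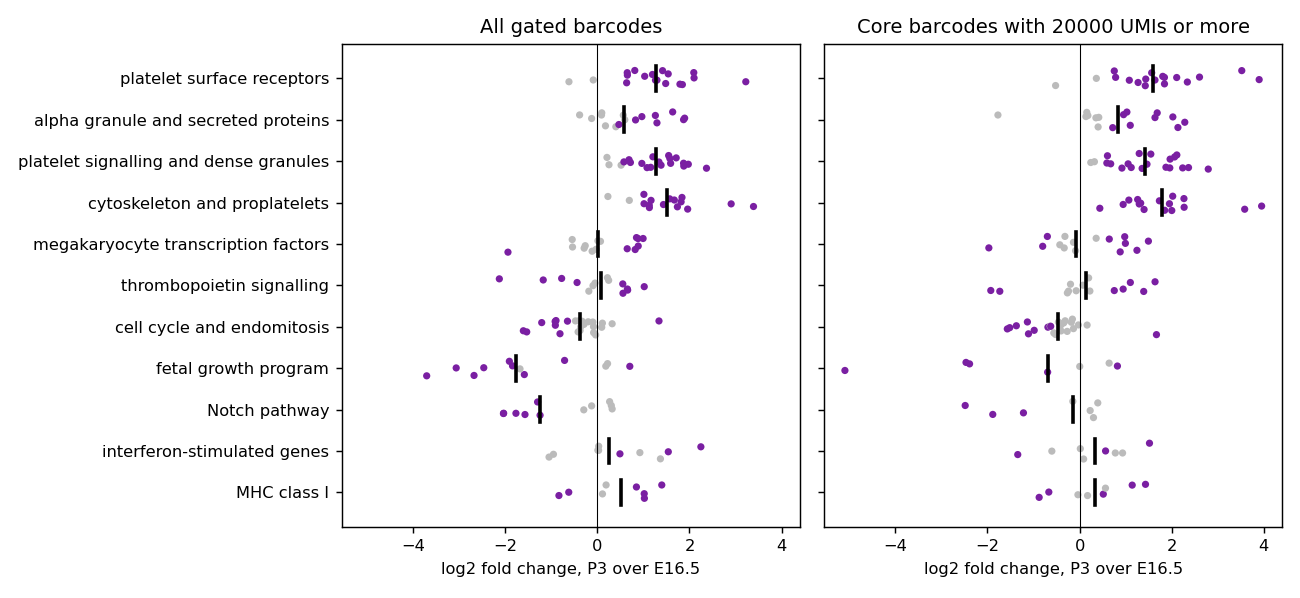
Each point is a gene of a list, by its log2 fold change (P3 over E16.5) in all gated barcodes (left) and in core barcodes with 20000 UMIs or more (right); purple points passed at an adjusted p under 0.05 and bars mark list medians. The 4 platelet lists lie mostly above 0 in both panels (medians 0.58 to 1.50 on the left), whereas transcription factors centre near 0.

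Transcription factors moved in both directions. Of 15 tested, 6 were higher and 1 lower (median 0.01), where 17.5% of all genes were higher and 17.6% lower. Nfe2, the factor that drives the last step of platelet release and acts on Tubb1, stood at 128, 152, 117, 91.4 and 109 CPM at E16.5 and at 204, 203, 330 and 272 CPM at P3. Its rise was 0.99 ± 0.18 (adjusted p = 0.00122). Its small partner Mafg (0.89), Lyl1 (0.88), Gata1 (0.85) and Gfi1b (0.82) were also higher, but Gata1 overlapped between stages. Srf, which acts on actin genes, went from 44.5 ± 18.3 to 11.8 ± 4.41 CPM, a fall of 1.94 ± 0.28 (adjusted p = 0.000328), while its interaction was 0.16 ± 0.23 (adjusted p = 0.764). Fli1 and Runx1, named here although the rule for named genes does not take them, stood at 235 ± 93.2 and 201 ± 40.0 CPM, and at 174 ± 67.5 and 126 ± 37.2 CPM. Runx1 was called lower in the core and in the large core barcodes (in the latter by -0.70 ± 0.19, adjusted p = 0.0121) but not over all gated barcodes, and these sets were not compared with each other.

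Cell cycle and endomitosis genes were lower for 8 of 24 and higher for 1 (median -0.37), where 17.6% of all genes were lower. Ccne2 and Ccne1, the E cyclins of DNA replication, went from 31.8 ± 5.30 to 11.3 ± 3.89 CPM and from 27.1 ± 4.90 to 14.5 ± 4.80 CPM. Cdk1 stood at 208, 133, 201, 164 and 134 CPM at E16.5 and at 123, 68.0, 65.7 and 50.1 CPM at P3, a fall of 1.21 ± 0.27 (adjusted p = 0.00474) without overlap. Aurkb, a mitotic kinase, and Ect2, which acts in the division of the cell body, fell by 0.92 and 1.53. Ccnd3, the D cyclin of megakaryocytes, was the gene that rose, from 234 ± 42.5 to 620 ± 176 CPM (1.34 ± 0.20, adjusted p = 0.000354). In the model of members against other barcodes, Ccnd3 was the only 1 of the 24 to pass over all gated barcodes (0.74 ± 0.15, adjusted p = 0.00479), where 8.91% of all genes were called. In the core, where that model called 8.36% of genes, Ccne1 also fell beyond the other barcodes (-1.30 ± 0.27, adjusted p = 0.00537). In the large core barcodes, where it called 12.1%, Ccne1 (-1.57 ± 0.31, adjusted p = 0.00377) and Mcm6, a DNA helicase subunit (-0.67 ± 0.18, adjusted p = 0.0215), did so.

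In thrombopoietin signalling, 5 of 14 genes were higher and 4 lower (median 0.08), where 17.5% of all genes were higher and 17.6% lower. Jak2, a kinase of the pathway, went from 60.8 ± 18.4 to 102 ± 22.5 CPM with overlap between stages, and the inhibitor Sh2b3 from 30.9 ± 6.82 to 67.7 ± 14.8 CPM. Both rose beyond the other barcodes (interactions 1.55 and 1.06). Socs3, a feedback inhibitor, fell by 2.13 ± 0.42 and Myc, a growth factor-induced transcription factor, by 1.17 ± 0.38. Pim1, a kinase of the same pathway, fell by 0.78 ± 0.15 over all gated barcodes, but in large core barcodes the change was -0.07 ± 0.19 (adjusted p = 0.795). The interaction of Pim1 was called higher in the core and in the large core barcodes. Mcl1 was the fourth gene called lower over all gated barcodes, but not in either of these sets.

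By the rule for single genes, the 10 largest rises called in both models were Atp6v0c, Pcp4l1, Ttll11, Myl9, Cd226, Tubb1, Pdzk1ip1, Slpi, Igtp and Smtn. All 10 were called at each alternative run for the stage fit. They were picked by their calls in that same fit, so this is no independent support. Pcp4l1, at chr1:171173262-171196268 (minus strand), stood at 12.2, 6.31, 5.14, 5.49 and 12.2 CPM at E16.5 and at 47.6, 105, 102 and 164 CPM at P3. In other barcodes it averaged 4.47 and 0.778 CPM, and its interaction was 6.38 ± 0.55 (adjusted p = 3.42e-06). Ttll11, a tubulin-modifying enzyme, went from 4.92 ± 2.57 to 60.2 ± 30.9 CPM, and Smtn, a smooth muscle actin-binding protein, from 19.7 ± 7.37 to 133 ± 46.6 CPM. Slpi, a protease inhibitor, and Igtp, an interferon-inducible GTPase, rose by 2.75 ± 0.33 and 2.69 ± 0.31. Atp6v0c, a proton pump subunit, was at 0 to 1.22 CPM at E16.5 and at 398 to 569 CPM at P3, and other barcodes averaged 1.06 and 406 CPM. A difference in gene lists between stages and a change in the cells cannot be told apart for Atp6v0c, and its interaction was lost in 9 alternatives, among them without library A, B, C or D, Jag1+/+ replicate 1, the shared library or Jag1Ndr/Ndr replicate 2.

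The 10 largest falls were Nr4a1, Rgs1, Cebpb, Fos, Marcks, Gatm, Lgmn, Ppp4c, Myl12b and Id2. Nr4a1, an immediate early transcription factor at chr15:101254269-101274795 (plus strand), stood at 96.7, 82.8, 121, 60.3 and 111 CPM at E16.5 and at 7.21, 6.61, 10.9 and 1.07 CPM at P3. Its fall of 3.83 ± 0.33 (adjusted p = 1.23e-05) was the steepest of the 10, and in other barcodes the means were 17.0 and 4.92 CPM. Fos, also an immediate early gene, went from 471 ± 87.6 to 146 ± 60.2 CPM, and Rgs1, which dampens G protein signals, from 102 ± 24.3 to 19.7 ± 8.02 CPM. Genes of this kind respond within minutes to handling of tissue, and the digestion differed between stages, so stage and digestion cannot be told apart for them. In the core without barcodes that held 3 or more endothelial markers, Marcks, Gatm, Lgmn and Id2 lost their stage call, and their changes were -0.61, -0.67, -1.29 and -0.22. That set also lacks many of the large barcodes, and the part of depth in these losses was not tested. Id2 lost it in 9 of 19 alternatives in all, Marcks in 2 of 19, and Gatm and Lgmn in 1 of 18 each. Myl12b, a myosin light chain, stood at 78.3 CPM in library A and at 5.20 to 12.8 CPM in the other P3 libraries, against 76.0 to 92.3 CPM at E16.5. Its stage call was lost when any library other than A was left out. Beyond the other barcodes, Rgs1 and Myl12b kept their call under every alternative run, and the other 8 falls lost theirs under at least 1.

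**Figure D5:**
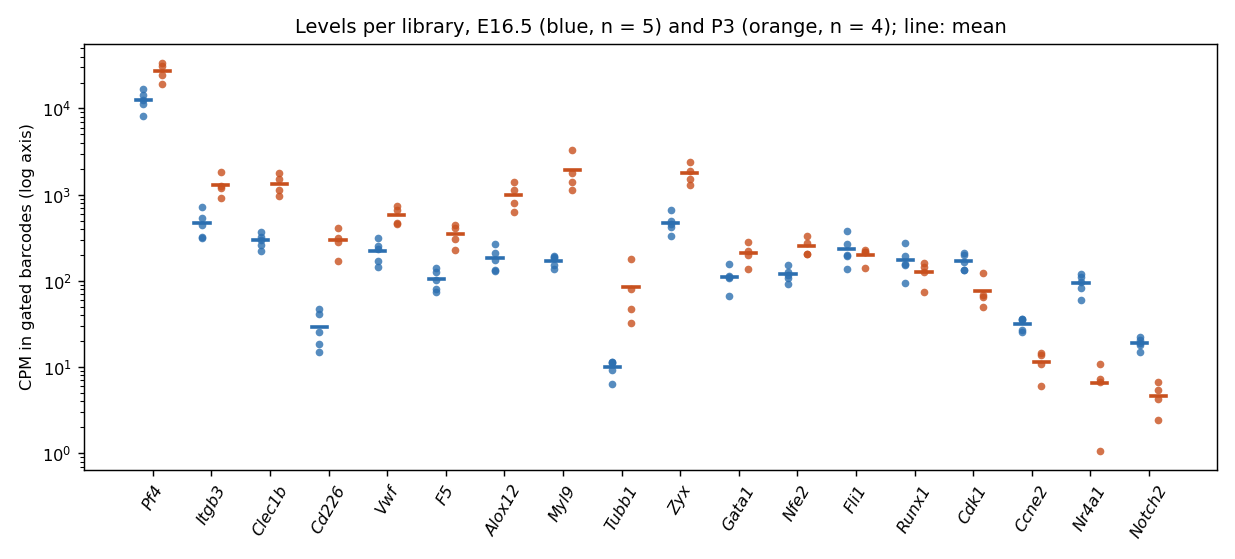
CPM (log axis) of 18 genes in the gated barcodes of each library, with the mean as a line (E16.5 blue, n = 5; P3 orange, n = 4); Pf4 is a gate gene and is shown without a test. Myl9, Clec1b, Cd226 and Alox12 do not overlap between stages, whereas Fli1 and Runx1 do.

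The fetal growth list, which holds imprinted and Lin28-linked genes, was lower for 8 of 12 genes and higher for 1 at P3 (median -1.76). Over all genes, 17.6% were lower. Mest, an imprinted gene, went from 95.8 ± 65.0 to 8.23 ± 7.18 CPM, and Igf2bp1, an RNA-binding protein of fetal cells, from 9.76 ± 4.33 to 0.884 ± 1.03 CPM. Cdkn1c, Peg3, Dlk1 and Grb10, also imprinted, fell by 2.68, 2.47, 1.91 and 1.84. In large core barcodes 7 genes could be tested, of which 4 were lower (Dlk1, Igf2bp2, Grb10 and Lin28b) and 1 higher (median -0.69), and Mest, Cdkn1c, Peg3 and Igf2bp1 were not among those tested. Dlk1 at E16.5 stood at 18.6, 38.2, 89.0, 133 and 156 CPM, so that the Jag1Ndr/+ 1 and Jag1Ndr/Ndr libraries were above the others. The summed hepatocyte markers in the large core barcodes of these libraries were 552, 366, 6294, 13788 and 7128 CPM, in the same order of low and high libraries, and their part in the Dlk1 values was not tested. Of the 13 genes of the list in the interaction model, none was called lower, where 1.6% of all genes were. Dlk1 and Hmga2 were called higher, where 7.31% of all genes were, though neither in the core and only Hmga2 in the large core barcodes. Among interferon-stimulated genes, 3 of 10 were higher, among them Irf7 and Ifitm3, and 0 lower, where 17.5% of all genes were higher. In the core and in the large core barcodes Bst2, an antiviral membrane protein, was called lower. In the interaction model none of 14 genes was called higher and 1 (Bst2) lower, where 7.31% and 1.6% of all genes were. Lower in the core were Isg15, Bst2 and Rsad2, and in the large core barcodes Isg15 and Bst2. MHC class I genes were higher for 4 of 8 and lower for 2 (Tap2 and B2m), where 17.5% and 17.6% of all genes were. H2-K1, a class I heavy chain, ran from 45.7 to 65.2 CPM at E16.5 and from 101 to 167 CPM at P3 in members. Its mean in other barcodes went from 33.4 to 185 CPM, and its interaction was -0.68 ± 0.16 (adjusted p = 0.0151).

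Jag1 itself was at low levels in members. Its level was 1.06, 1.97, 0.571, 0.609 and 9.26 CPM in the gated barcodes of the E16.5 libraries and 0 in each P3 library. A count of 0 allows up to 0.618 to 3.20 CPM at P3, counting error only. The core held 1, 4, 1, 0 and 23 Jag1 UMIs at E16.5. The allele is a missense change, so these levels do not check the labels.

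Of the Notch pathway, none of 11 genes tested was higher at P3 and 6 were lower, namely Notch2, Maml1, Hes1, Notch1, Ncstn and Nrarp (median -1.24), where 17.6% of all genes were lower. The median was -0.66 in the core (8 genes tested, 4 lower, where 16.8% of all genes were lower). Notch2, a receptor at chr3:98013527-98150361 (plus strand), stood at 18.1, 20.5, 14.8, 18.9 and 22.2 CPM at E16.5 and at 5.35, 6.61, 2.43 and 4.27 CPM at P3. Its fall of 2.04 ± 0.25 (adjusted p = 0.000118) was steeper than that of other barcodes (interaction -0.88 ± 0.23, adjusted p = 0.0269). In large core barcodes 7 genes could be tested, and Notch2, Maml1 and Ncstn were lower (median -0.15). Adam10, the protease that cuts Notch receptors among other targets, stood at 167 ± 44.0 and 146 ± 35.1 CPM in members and at 145 and 76.3 CPM in other barcodes. Its interaction was 1.34 ± 0.15 (adjusted p = 3.22e-05). Of 18 genes of the list in that model, Adam10 alone was called higher and Notch2 alone lower, where 7.31% and 1.6% of all genes were.

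At E16.5, Jag1Ndr/Ndr libraries (n = 2) were compared with the others (n = 3), the question being whether the allele changes the members. In the gated barcodes 0 of 9629 genes (0.0%) were called by edgeR (703 at an unadjusted p under 0.05), whereas DESeq2 gave 62 calls. With the replicate number as a block, edgeR called 62 genes in the gated barcodes and 113 in the core. Medians of the platelet lists ran from -0.25 to -0.07 on the log2 scale, and none of their genes was called. In the core, 64 of 8882 genes (0.721%) were called, all higher in Jag1Ndr/Ndr, and in large core barcodes 8 of 8493 (0.0942%).

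The 5 genes with the smallest p in the core were Stab1, Dnase1l3, Dab2, Nr2f2 and Ets1, of which Stab1, Dnase1l3 and Nr2f2 are known from liver endothelium. Stab1, a scavenger receptor of these vessels, stood at 3.03, 7.71 and 7.03 CPM in the other libraries and at 50.9 and 43.2 CPM in Jag1Ndr/Ndr (3.03 ± 0.34, adjusted p = 0.0169). Nr2f2, a transcription factor of veins, stood at 0, 4.08 and 2.34 CPM and at 29.2 and 53.1 CPM. The 8 genes called in large core barcodes were Flt1, Nr2f2, Oit3, Lyve1, Tmem2, Mt1, Col4a2 and Apoe. All 6 gate genes were found in 14.3% and 30.0% of the large core barcodes in Jag1Ndr/Ndr and in 35.0% to 37.5% in the other libraries. The part of this difference in the 8 calls was not tested. Of the list genes, Notch1 (adjusted p = 0.0431), Mest (0.0356) and Sparc were called in the core.

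These endothelial UMIs sat in few barcodes. The summed level of the 6 endothelial markers in the core was 40.9, 152 and 105 CPM in the other libraries and 409 and 411 CPM in Jag1Ndr/Ndr. In the other libraries, 37.0%, 56.5% and 67.2% of these UMIs were in core barcodes with at least 3 of the markers. In the Jag1Ndr/Ndr libraries, 92.1% and 87.8% were in such barcodes, which numbered 3 of 53 and 8 of 75, and 1 barcode held 53.2% and 30.4%. The share of core barcodes with at least 3 markers was 5.66% and 10.7% in Jag1Ndr/Ndr and 4.62%, 9.21% and 8.89% in the others, with overlap between the groups. Without such barcodes, the markers stood at 31.0, 85.2 and 45.0 CPM and at 39.9 and 58.5 CPM, and edgeR called 0 of 8125 genes (253 at an unadjusted p under 0.05). Leaving out these barcodes removes most of the endothelial UMIs by construction, so the loss of the endothelial calls follows from it. Without the shared library, 13 genes were called in the core, without Jag1Ndr/Ndr replicate 1 the number was 34, and without Jag1Ndr/+ replicate 1 it was 175.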

How the data were processed

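The deposited single-cell RNA-seq matrices of whole liver held unnormalized UMI counts for each gene in each barcode, written by 10x Genomics software 3.0.2 (P3, 22597 genes) and 3.1.0 (E16.5, 31053 genes) per the file headers. Cell Ranger 2.1.1, R 4.1.2, Seurat and mm10 are named in the submitters' processing notes. Filters and annotation are not given in the sources used here. Identical or contained matrices were counted once, and P3 library C was the third P3 genotype matrix less the barcodes of library A.

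A barcode was kept from 1000 UMIs upward if no more than 15% of them were mitochondrial. Scrublet (scanpy 1.11.5) marked 4.11% to 13.4% of barcodes per library, and these were removed only as an alternative. UMIs were summed per library and class, and tested with edgeR 4.0.16 (quasi-likelihood, TMM, filterByExpr, Benjamini-Hochberg) in R 4.3.3. DESeq2 1.42.0 was an alternative. The interaction model paired members and all other barcodes of each library. CPM are counts per 1000000 UMIs of the summed class. They carry no TMM scaling, so fitted changes and interactions can differ from ratios of the printed CPM. Shares and median depths were compared by exact permutation of libraries (SciPy 1.17.1), and intervals are exact binomial ones at 95%. Intervals, and the limit of 3 counts used for a count of 0, cover counting error only. E16.5 groups share replicate numbers 1 and 2, and same-numbered libraries deviated together (r = 0.390, 0.115 and 0.438 over 2657 genes, each over 0.1), so fits with the number as a block are given, although in a group of 2 the deviations mirror each other and the labels tie the number to nothing. The edgeR fits, in their main form only, were first run on simulated counts with known changes. Gating, the alternative fits and the permutation tests were not simulated. Gene coordinates are from GENCODE on GRCm38, matched to 22442 of 22519 genes in both lists.

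Members and lists were chosen with earlier results of these data known. Named genes were the 6 gate genes, the 15 genes highest against both progenitors and erythroblasts (by the smaller change, at least 50 CPM), and the 10 largest rises and falls called in both the stage and interaction models (at least 50 CPM, no marker of another class). Called genotype genes (5 per direction if over 10), up to 6 genes per list (called and largest first), the Notch genes, and the 10 genes most concentrated in members were also named. Alternatives were another tool, scaling, filter, gate, depth and doublet setting, and leaving out each library. Expression was not tested without members that carry 3 or more markers of another class, since few remained.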

Additional observations from a re-analysis of the deposited data

Results flagged for a closer look

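Among 92 groups of 4 or 5 libraries examined, 3 had a library far from the rest. Chance gives about 1 in 20, so this number is no more than chance gives. The gated share of Jag1Ndr/+ replicate 1 was 0.324%, while the nearest E16.5 library was at 0.537%. Pdzk1ip1, a small membrane protein, stood at 242 CPM in the members of P3 library A, and the nearest P3 library was at 139 CPM. Myl12b stood at 78.3 CPM in the same library and at 12.8 CPM in the nearest one, and the E16.5 libraries ran from 76.0 to 92.3 CPM.

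The change between stages differed between members and all other barcodes for 1228 genes (edgeR quasi-likelihood interaction test, adjusted p under 0.05). Of these, 1007 were higher in members at P3 relative to the change elsewhere and 221 lower. In the whole core the number was 1143, and without core barcodes that held 3 or more endothelial markers, most of them large, it was 426.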

How the results depend on the processing

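Differences in share are in percentage points. For Jag1Ndr/Ndr less the other E16.5 libraries, the difference became -0.00275 in the core, and ran from -0.00118 (without Jag1Ndr/+ replicate 1) to 0.127 when single libraries were left out. For P3 less E16.5, it became -0.0224 with a gate of 2 genes, and passed at 0.0748 after thinning. Leaving out single libraries gave 0.0235 to 0.209. The log2 difference in median UMIs passed at 0.523 with a minimum of 2000 UMIs. Leaving out single libraries gave 0.286 to 0.556, the latter without library B. Without members that carry 3 or more markers of another class, the stage differences were 0.0419 in share and -1.46 in depth. This set holds 1 to 5 members per E16.5 library and 4 to 18 per P3 library. Its filter did not count erythroid or progenitor markers, and it depends on depth and on RNA of the other classes. At E16.5, 86.2% to 100% of core barcodes per library held 3 or more hepatocyte markers. These values are therefore no test of share or depth.

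Genes called between stages numbered 2886 in the core and 2111 in the core without barcodes that held 3 or more endothelial markers, most of them large. They fell to 515 after thinning, where 1402 genes could be tested. Leaving out single libraries gave 2664 to 3049. The interaction count was 1143 in the core, and 426 in the core without barcodes that held 3 or more endothelial markers. Over all gated barcodes, it was 819 to 1354 with single libraries left out. Of the 20 named stage genes, 5 lost their stage call under at least 1 alternative and 12 their interaction call. For genotype, where 0 genes were called, DESeq2 gave 62, no filter 431, a gate of 4 genes 13, the core 64 and the large core 8. Leaving out single libraries gave 1 to 58, and 13 to 175 in the core. The cause of these differences was not tested.

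With a replicate block, 62 genes were called for genotype in the gated barcodes, 113 in the core, and 2970 between stages. The stage count stayed within 1.5 times. Libraries held 54 to 188 members, so genes at a few CPM could not be measured well.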
